A study of Mus musculus with 6 samples.

Results

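The genes described here are 10 glycosyltransferases of the gut surface, taken as a given list and found by symbol among the 55487 gene identifiers of the table. They are the fucosyltransferases Fut2, Fut4 and Fut8, the sialyltransferases St6gal1, St3gal3, St3gal4 and St3gal6, the N-acetylgalactosaminyltransferase B4galnt2, and the galactosyltransferases C1galt1 and B3galt5. RNA of the terminal ileum, the last stretch of the small intestine, was profiled on postnatal day 9 in C57BL/6 mice, with 3 NEC and 3 control libraries. NEC stands for necrotizing enterocolitis, in which the bowel of newborns, mostly those born early, becomes inflamed and dies. The NEC mice were gavaged with a hyperosmolar formula, kept at 5% oxygen in bouts of 10 min (3 bouts daily on 4 days), and given lipopolysaccharide by mouth (4 mg/kg daily) on days 6 and 7 after birth. The control labels carry the same treatment text, so how the controls were fed and handled is not stated, and no genetic change is given for either group. The labels do not say that each library came from its own animal, so a p-value here reflects how much these libraries vary, and that variation may be technical.

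Cells of the gut lining carry a coat of glycans on mucins, membrane proteins and lipids. Glycosyltransferases of the Golgi build these chains 1 sugar at a time, and the last sugar added is often fucose or sialic acid. In rodents the suckling small intestine is rich in sialic acid, and fucose becomes prominent around weaning. Terminal fucose feeds gut bacteria and both sugars serve as attachment sites for microbes and toxins, so the balance of these enzymes is of interest in a neonatal gut disease.

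Levels were read as FPKM, in which fragments are divided by transcript length and by library depth, and the smallest steps in the table correspond to 15.2 to 18.7 M fragments per library. All 9 genes of an epithelial marker list were well above the filter, and exocrine pancreas markers summed to at most 0.0805 FPKM. The 5 hepatocyte markers summed to 22.1 to 43.1 FPKM in NEC and 82.3 to 100.7 in control, most of it from Ttr, while Alb was at 0 to 0.103 FPKM. Genes entered the test at a mean of at least 1 FPKM over the 6 libraries, and a gene was called at an adjusted p under 0.05 (limma on log2(FPKM + 1), Benjamini-Hochberg over 15806 tested genes). Changes are NEC minus control on that scale, which understates the change of genes with low values. As deposited, the values of the 15806 genes had a median change of −0.26. This became 0.01 after a TMM-type scaling, in which a trimmed mean of gene ratios is made equal between libraries, and 0.00 after quantile normalization, so each change below is to be read against its own median.

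Of the 10 genes, 8 passed the level filter and Fut2 and B3galt5 did not. On the deposited scale 3 were called lower in NEC (Fut8, St6gal1 and B4galnt2), 0 were called higher and 5 were not called (limma). At an unadjusted p under 0.05, 4 were lower and 0 higher. Over all tested genes, 30.6% were called lower and 7.69% higher. The median change of the 8 genes was −0.21, close to that of all tested genes. With TMM-type scaling 2 were called lower (Fut8 and St6gal1) against 14.1% of all tested genes, and 1 higher (St3gal4) against 16.9%. Quantile normalization called the 3 lower genes of the deposited scale again, against 15.1% lower and 13.9% higher over all genes. A first version of the TMM-type factors, computed over every gene above 0, called 3 higher (St3gal4, St3gal6 and C1galt1) against 21.6% of all genes and 2 lower (Fut8 and St6gal1) against 10.6%.

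**Figure D1:**
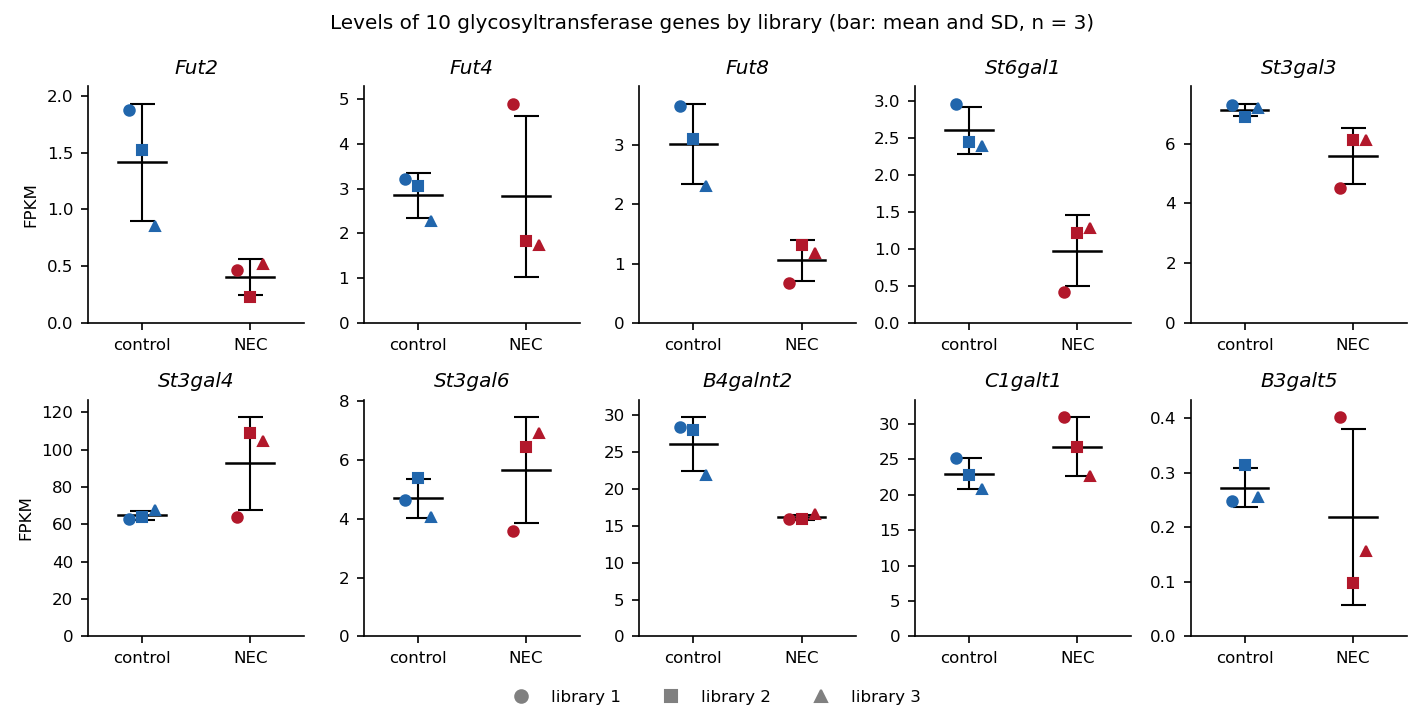
FPKM of the 10 glycosyltransferase genes in each library, 1 panel per gene with its own vertical axis from 0. Points are libraries, with shapes for the library number, and bars give mean and SD of 3 libraries. Fut2, Fut8, St6gal1, St3gal3 and B4galnt2 lie lower in NEC with no overlap, as did 47.3% of all tested genes. St3gal4 is near 105 to 109 FPKM in NEC 2 and 3 and at control level in NEC 1.

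For each of the 3 genes called lower, a listed start is shown so that a reader can see what precedes it. RefSeq promoter windows on GRCm38.p6, the mm10 build, were at hand for 9 of the 10 genes, in 17 windows. Each line gives the 250 bases before the start, 5′ to 3′ along the gene, in lower case, with capitals for the GATA motif, searched as AGATAA on both strands. For St6gal1 and Fut8, the window shown is the gene's only listed window with a GATA match. The windows are chr11:95914872-95915121 on the minus strand for B4galnt2, chr16:23224490-23224739 on the plus strand for St6gal1 (the first of 3 listed starts), and chr12:77237854-77238103 on the plus strand for Fut8 (the second of 4 listed starts).
B4galnt2: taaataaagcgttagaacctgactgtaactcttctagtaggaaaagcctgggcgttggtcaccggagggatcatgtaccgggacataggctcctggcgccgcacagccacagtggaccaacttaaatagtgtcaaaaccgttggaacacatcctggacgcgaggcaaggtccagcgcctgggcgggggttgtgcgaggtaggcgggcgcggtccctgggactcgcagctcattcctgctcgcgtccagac
St6gal1: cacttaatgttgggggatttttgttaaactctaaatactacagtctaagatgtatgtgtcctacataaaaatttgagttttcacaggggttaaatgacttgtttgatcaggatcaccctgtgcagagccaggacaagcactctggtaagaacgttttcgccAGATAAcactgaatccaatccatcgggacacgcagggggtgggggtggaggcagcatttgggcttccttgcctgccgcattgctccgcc
Fut8: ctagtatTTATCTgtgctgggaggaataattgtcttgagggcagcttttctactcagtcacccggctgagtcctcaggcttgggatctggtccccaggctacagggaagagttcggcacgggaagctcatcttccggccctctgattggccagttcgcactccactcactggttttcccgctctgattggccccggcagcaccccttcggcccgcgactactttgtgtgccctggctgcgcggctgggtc
St6gal1 held AGATAA at 89 to 84 bases before its start, and the Fut8 window held it on the reverse strand at 243 to 238 bases. The B4galnt2 window held none of the 6 motifs searched. Over all 32851 windows of this length, 9.988% held AGATAA. That share is per window, whereas St6gal1 and Fut8 each had several listed windows in which to match. The other letters searched, on both strands, were CAATAAA for CDX (4.204% of windows), GTTAAT for HNF1 (6.432%), CAAAGTCC for an HNF4 core (1.196%), TTCNNNGAA for STAT (7.02%) and ACANNNTGT for the glucocorticoid receptor (5.835%). Among the other windows, CDX matched once, at the third Fut8 start, STAT once, at the first B3galt5 start, and AGATAA once, at the first St3gal6 start. The single windows of Fut4, St3gal3, St3gal4 and C1galt1 held none of them.

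The fucosyltransferases come first, beginning with Fut2, which adds fucose to terminal galactose and makes the H antigen of gut mucus and epithelium. Fut2 (ENSMUSG00000055978; mm10 chromosome 7, 45648591 to 45666394, minus strand) was at 0.468, 0.226 and 0.522 FPKM in NEC 1, 2 and 3 and at 1.87, 1.52 and 0.855 in control 1, 2 and 3. All NEC libraries lay below all controls, with control 3 nearest to NEC. The means were 0.405 ± 0.157 FPKM in NEC and 1.42 ± 0.516 in control (each a mean of n = 3 libraries with SD), so NEC stood at 0.286 of control. These levels rest on few fragments: at its longest transcript they amount to 23.4, 12.1 and 28.8 fragments in NEC and 86.4, 68.4 and 40.9 in control.

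Fut2 missed the level filter and has no call in the comparison of 15806 genes. With no filter, its change was −0.76 (SE 0.19, 95% interval −1.23 to −0.30, adjusted p = 0.0429, limma), and in that fit 15.3% of all genes were called lower and 3.17% higher. When NEC 2 was left out, Fut2 passed the filter and its change of −0.67 was not called (adjusted p = 0.0685). The neighbouring Sec1, a Fut2 relative, shares a run of 180 identical bases with Fut2 transcripts, so fragments from that stretch could have been split between them. Sec1 itself was at 0.0478 to 0.111 FPKM in NEC and 0.130 to 0.293 in control. Fut1, the second enzyme that makes the H antigen, was listed at 0 in NEC 1 and reached at most 0.0948 FPKM elsewhere, so no ratio of Fut2 to Fut1 was formed.

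Fut4, which adds fucose to N-acetylglucosamine and makes the Lewis x structure, did not differ in 1 direction. This gene with a single exon (chromosome 9, 14748320 to 14752393) was at 4.90, 1.82 and 1.75 FPKM in NEC and 3.22, 3.06 and 2.27 in control. NEC 1 was the highest of the 6 libraries and NEC 2 and 3 the lowest. The change was −0.10 (SE 0.31, 95% interval −0.83 to 0.63, adjusted p = 0.816) on the deposited scale, 0.17 with TMM-type scaling and 0.22 with quantile normalization. Without NEC 1 it was −0.46 and was called lower (adjusted p = 0.0402).

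Fut8 attaches the core fucose to the base of N-glycans, and it fell. Fut8 (chromosome 12, 77238125 to 77476338, plus strand) was at 0.665, 1.31 and 1.18 FPKM in NEC and 3.65, 3.10 and 2.30 in control, with means of 1.05 ± 0.341 and 3.02 ± 0.677 FPKM. No NEC library reached any control. The NEC mean stood just above the level filter of 1 FPKM, and NEC 1 lay under it. Its change was −0.97 (SE 0.18, 95% interval −1.41 to −0.53, adjusted p = 0.0126), −0.76 with TMM-type scaling and −0.60 with quantile normalization, and all 3 were called. The call was lost without control 1 (adjusted p = 0.0535) and without control 2 (0.0561).

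Set against each other within a library, the fucosyltransferases differed in composition. Of the summed FPKM of Fut1, Fut2, Fut4, Fut7, Fut8 and Fut9, Fut4 made up 81.1%, 53.8% and 49.6% in NEC and 36.3%, 39.3% and 41.5% in control. Fut2 made up 7.74%, 6.67% and 14.8% in NEC and 21.1%, 19.5% and 15.6% in control. The groups did not overlap for either share, although NEC 3 and control 3 were within 1 point of each other for Fut2. Within these shares the rise of Fut4 and the falls of Fut2 and Fut8 are tied together, since each is a part of the same sum.

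Among the sialyltransferases, St6gal1 joins sialic acid to galactose of N-glycans in α2,6 linkage, the form known from the suckling rodent gut and from serum proteins and B cells. St6gal1 (ENSMUSG00000022885; chromosome 16, 23224740 to 23360350, plus strand) was at 0.424, 1.22 and 1.29 FPKM in NEC and 2.97, 2.45 and 2.401 in control. The NEC mean of 0.977 ± 0.481 FPKM was 0.375 of the control mean of 2.61 ± 0.316, and NEC 1 was lowest by a wide margin. With a NEC mean under 1 FPKM, St6gal1 passed the level filter through its control libraries. St6gal1 fell by 0.90 on the log2 scale (SE 0.20, 95% interval −1.38 to −0.41, adjusted p = 0.0191). It was called with TMM-type scaling (−0.70) and quantile normalization (−0.52) too. Leaving out control 1, 2 or 3 ended the call, with adjusted p-values of 0.0734, 0.0658 and 0.0543. St6gal2, its only relative that also makes the α2,6 linkage to galactose, was listed at 0 in every library.

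The remaining 3 sialyltransferases make the α2,3 linkage, and St3gal4 was by far the most abundant of the 10 genes. St3gal4, which acts on galactose of lactosamine chains (chromosome 9, 35046576 to 35119268, minus strand), was at 64.1, 109 and 105 FPKM in NEC and 62.9, 64.0 and 67.7 in control. On the deposited scale NEC 2 and 3 stood well above the narrow control range, and NEC 1 lay inside it. The change was 0.47 (SE 0.21, 95% interval −0.02 to 0.96, adjusted p = 0.110), which was not called. TMM-type scaling gave 0.82 and called it higher (adjusted p = 0.0117), and leaving out NEC 1 gave 0.71, also called (adjusted p = 0.00266). Quantile normalization gave 0.48 with no call (adjusted p = 0.106).

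As a share of the 6 ST3GAL genes, St3gal4 was higher in every NEC library. It held 62.8%, 67.5% and 65.3% of their summed FPKM in NEC and 50.8%, 49.8% and 51.1% in control, with means of 65.2% ± 2.35 and 50.6% ± 0.692. NEC 1, whose St3gal4 level lay inside the control range, had the lowest summed FPKM of the family, 102 against 124 to 162 in the other libraries. The shares of St3gal1, St3gal2, St3gal3 and St3gal5 were lower in NEC with no overlap, and that of St3gal6 overlapped. This share and that of the fucosyltransferases were chosen after the values were seen, and no test was made of them.

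St3gal3, which prefers the galactose of type 1 chains (chromosome 4, 117932154 to 118134914), was at 4.51, 6.13 and 6.10 FPKM in NEC and 7.30, 6.89 and 7.18 in control. The groups did not overlap, as was the case for 47.3% of all tested genes with NEC below control. Its change of −0.31 (SE 0.13, adjusted p = 0.0908) was not called, and it was −0.01 with TMM-type scaling, −0.08 with quantile normalization and 0.07 with the first version of the TMM-type factors. St3gal6, which sialylates lactosamine ends (chromosome 16, 58468125 to 58524243), was at 3.59, 6.46 and 6.93 FPKM in NEC and 4.64, 5.39 and 4.08 in control. NEC 1 was the lowest library and NEC 2 and 3 the highest, and the change of 0.19 was not called (SE 0.22, adjusted p = 0.522). Without NEC 1 it was 0.44 and was called higher (adjusted p = 0.0295), the same library pattern as in St3gal4.

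B4galnt2 adds N-acetylgalactosamine to galactose that already carries α2,3 sialic acid, which makes the Sda or Cad antigen of the gut. B4galnt2 (ENSMUSG00000013418; chromosome 11, 95865943 to 95914891, minus strand) was at 15.9, 15.9 and 16.6 FPKM in NEC and 28.3, 28.0 and 21.8 in control. The NEC libraries lay within 1 FPKM of each other and below every control, with means of 16.1 ± 0.375 and 26.0 ± 3.66 FPKM. B4galnt2 fell by 0.65 on the log2 scale (SE 0.12, 95% interval −0.94 to −0.36, adjusted p = 0.0116), and by 0.62 with quantile normalization. The TMM-type scaling gave −0.32 and no call (adjusted p = 0.10), and the call was also lost without control 1 (0.0544) or control 2 (0.0567).

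The last pair builds the chains on which the others act. C1galt1, which makes the core 1 structure of O-glycans on mucins (chromosome 6, 7844842 to 7875687), was at 31.0, 26.8 and 22.6 FPKM in NEC and 25.2, 22.8 and 20.8 in control. The groups overlapped and the change of 0.21 was not called (SE 0.14, 95% interval −0.12 to 0.53, adjusted p = 0.261). It was called in 1 of 16 alternatives, the first version of the TMM-type factors (0.64, adjusted p = 0.0471). B3galt5, which makes type 1 chains (chromosome 16, 96235801 to 96319859), was under the filter at 0.402, 0.0974 and 0.156 FPKM in NEC and 0.249, 0.314 and 0.256 in control, at most 36 fragments in a library. Its change with no filter was −0.07 (adjusted p = 0.629).

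**Figure D2:**
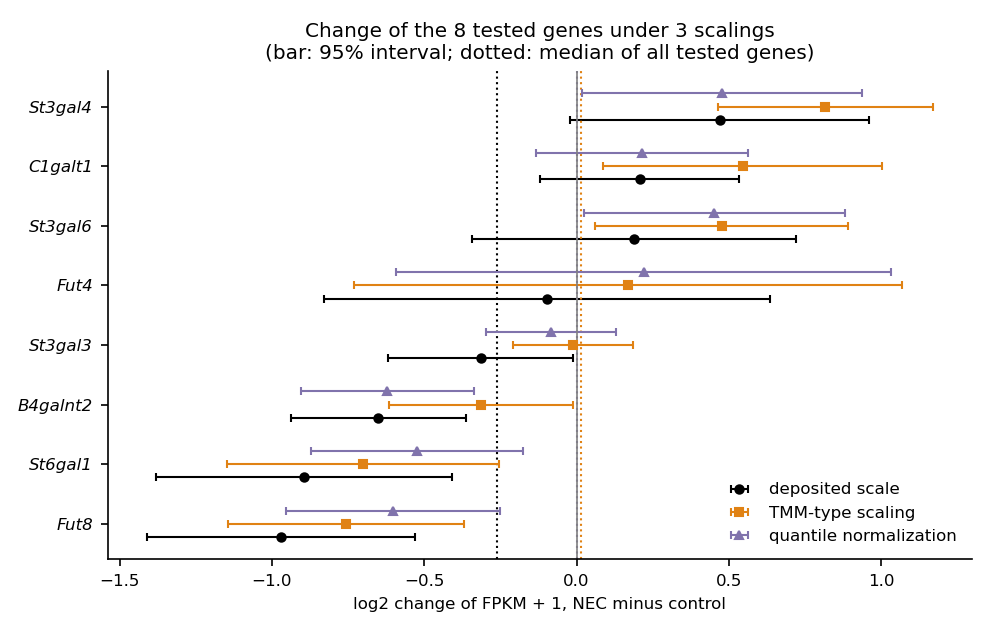
Log2 change of FPKM + 1, NEC minus control, for the 8 tested genes under 3 scalings, with 95% intervals and dotted lines at the median of all tested genes on the deposited and TMM-type scales. Fut8 and St6gal1 lie below 0 under all 3 scalings, B4galnt2 is nearest to 0 with TMM-type scaling (−0.32), and St3gal4 ranges from 0.47 to 0.82.

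By level, the order of the 10 genes changed little. In control it ran St3gal4, B4galnt2, C1galt1, St3gal3, St3gal6, Fut8, Fut4, St6gal1, Fut2 and B3galt5. The neighbours B4galnt2 and C1galt1, Fut8 and Fut4, and Fut4 and St6gal1 overlapped between libraries. In NEC C1galt1 stood above B4galnt2 with no overlap, and Fut4 stood above Fut8, also with no overlap. The NEC neighbours St3gal6 and St3gal3, St3gal3 and Fut4, Fut8 and St6gal1, St6gal1 and Fut2, and Fut2 and B3galt5 overlapped. In FPKM, which is per length, St3gal4 exceeded 97.0% of tested genes in control and 97.9% in NEC. Fut8 went from above 33.5% of tested genes to above 10.3%, and St6gal1 from above 27.7% to above 8.38%.

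The ratios between genes of the same library do not depend on a single factor per library, as in the deposited and TMM-type scales, whereas quantile normalization can change them. The ratio of Fut2 to St6gal1, the fucose enzyme against the α2,6 sialic acid enzyme, was 1.104, 0.185 and 0.406 in NEC and 0.630, 0.620 and 0.356 in control. The means of 0.565 ± 0.480 and 0.535 ± 0.155 overlapped widely. The list is titled as a glycan switch, and both genes were low in NEC together. The NEC values of Fut2 rest on few fragments, and the NEC ratios spread widely. Whether sialic acid enzymes were exchanged for fucose enzymes therefore could not be read from this ratio. B4galnt2 to St6gal1 was 37.6, 13.01 and 12.9 in NEC and 9.53, 11.4 and 9.09 in control, higher in NEC with NEC 1 far above the rest. St3gal4 to B4galnt2, a ratio picked after its values were seen, was 4.03, 6.87 and 6.33 in NEC and 2.22, 2.29 and 3.10 in control. St3gal4 can make the structure that B4galnt2 acts on, and their ratio was higher in all 3 NEC libraries.

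**Figure D3:**
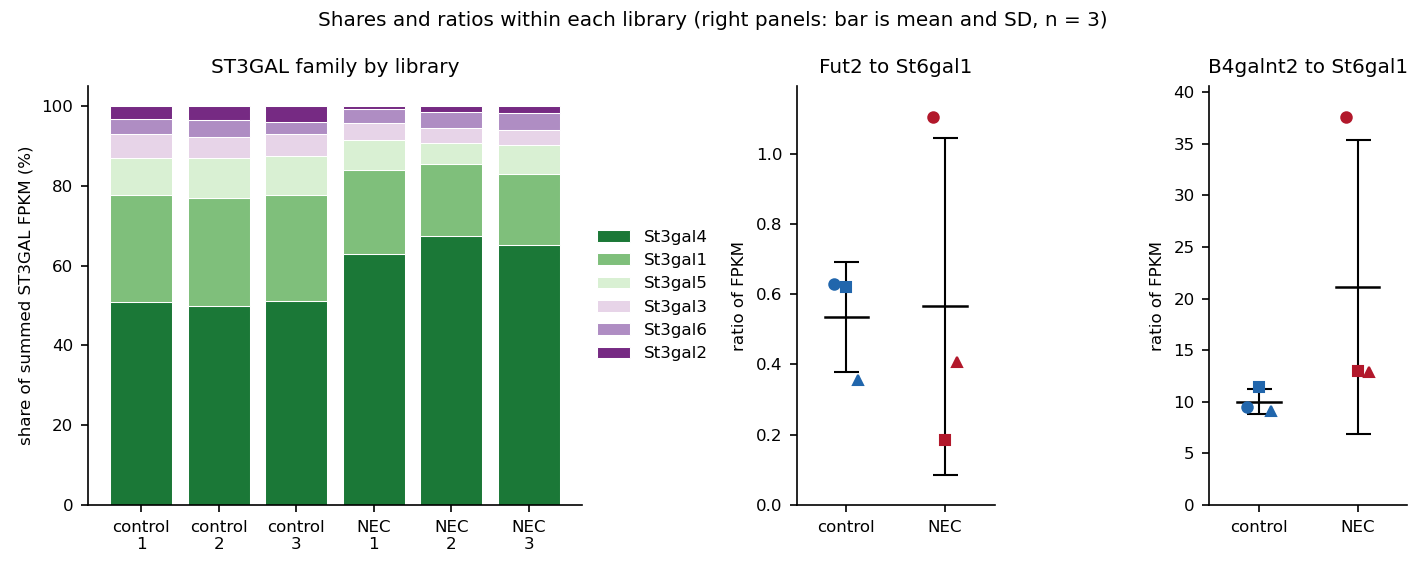
Left, the share of each ST3GAL gene in the summed FPKM of the 6 genes, 1 bar per library. Right, the ratios of FPKM of Fut2 to St6gal1 and of B4galnt2 to St6gal1, with points for libraries (circle, square and triangle for 1, 2 and 3) and bars for mean and SD. St3gal4 takes 62.8% to 67.5% of the family in NEC and 49.8% to 51.1% in control, and NEC 1 is the highest point in both ratios.

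Markers of cell types moved between the groups as well. In whole tissue, fewer cells of a type and less RNA per cell cannot be told apart. The summed FPKM of 9 epithelial markers was 1419 to 1705 in NEC and 1328 to 1434 in control, with 1 called higher (Vil1) and 1 lower (Krt19). All 7 absorptive enterocyte markers were called higher, with sums of 3994 to 4659 in NEC and 1597 to 1917 in control. Of 5 fibroblast markers all 5 were called lower (3 of 5 with TMM-type scaling), with sums of 79.8, 223 and 257 in NEC and 570, 591 and 469 in control. Smooth muscle sums were 122, 602 and 590 in NEC and 746, 797 and 673 in control, with 0 of 5 called by limma or at an unadjusted p under 0.05, so NEC 1 held the least of both.

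Fut8 and St6gal1 were lowest in NEC 1, the library with the least fibroblast and muscle signal. That library was also lowest in the goblet, enteroendocrine, tuft, macrophage and endothelium sums. The same held for T and innate lymphoid cells, enteric nerve and glia, and hepatocyte markers. It was not lowest in the epithelial, absorptive enterocyte, Paneth, B cell or neutrophil sums. Markers of B cells, which are known to express St6gal1, summed to 1.96, 3.34 and 1.08 FPKM in NEC and 4.75, 4.64 and 2.78 in control, and 4 of those 5 genes were under the filter. The part of these cells in the falls of Fut8 and St6gal1 was not tested. Without NEC 1 both calls held, with Fut8 at −0.83 (adjusted p = 0.0127) and St6gal1 at −0.68 (adjusted p = 0.00727). That fit does not separate the cell types, since fibroblast sums in NEC 2 and 3 (223 and 257) also lay below every control. Goblet cell markers summed to 285, 441 and 480 FPKM in NEC and 811, 775 and 471 in control, with 3 of 7 called lower and 1 higher on the deposited scale, and 0 lower and 1 higher with TMM-type scaling and with quantile normalization. Control 3 was the lowest control in goblet markers and in the Paneth cell sum (19.9 against 133 and 91.0). It was also the lowest control in the fibroblast, smooth muscle and B cell sums, and the highest in the epithelial and absorptive enterocyte sums. Among the 10 genes it was the lowest control for Fut2, Fut4, Fut8, St6gal1, St3gal6, B4galnt2 and C1galt1. It was not the lowest for St3gal3, St3gal4 and B3galt5. The part of any cell type in these values was not tested.

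Per 1000 FPKM of epithelial markers, the 5 genes that lay lower in NEC with no overlap did so again. In FPKM, 47.3% of all tested genes lay that way, and the mean divisor in NEC was 1.11 times that in control, so the count of 5 says nothing particular about these genes. Fut2 was at 0.274, 0.159 and 0.368 in NEC and 1.41, 1.13 and 0.596 in control on this scale. St6gal1 was at 0.248, 0.857 and 0.907 in NEC and 2.24, 1.83 and 1.67 in control. B4galnt2 was at 9.34, 11.1 and 11.7 in NEC and 21.3, 20.9 and 15.2 in control, and Fut8 and St3gal3 were also lower with no overlap. Fut4, St3gal4, St3gal6, C1galt1 and B3galt5 overlapped.

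**Figure D4:**
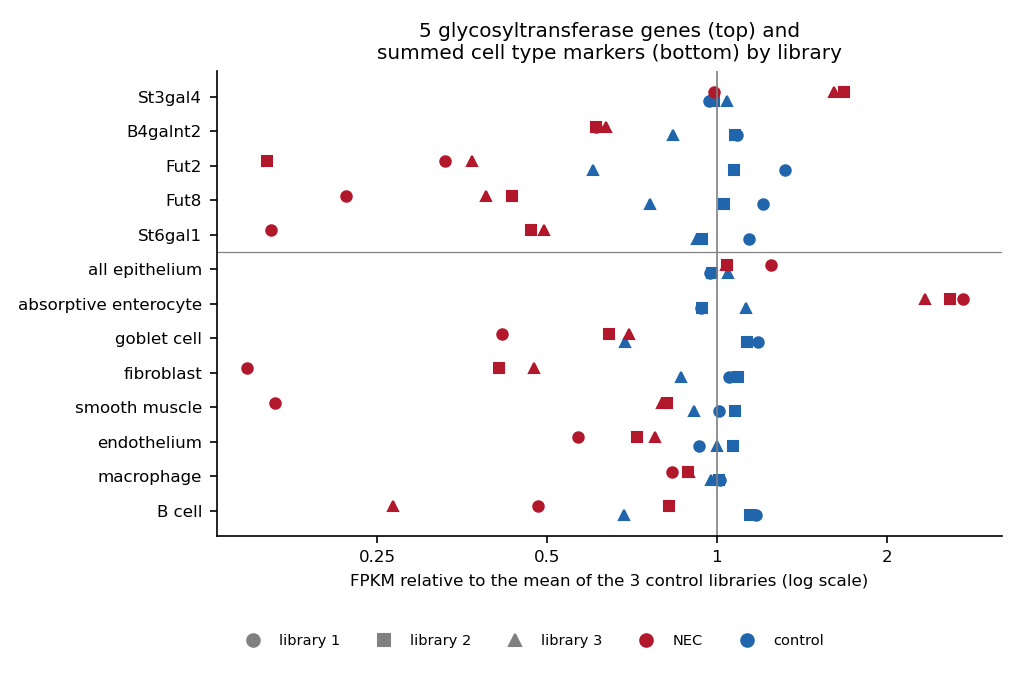
FPKM of 5 glycosyltransferase genes (top) and summed FPKM of 8 cell type marker lists (bottom) in each library, divided by the mean of the 3 controls, on a log scale. NEC 1 (red circle) is the lowest library for St6gal1, Fut8, and goblet cell, fibroblast, smooth muscle, endothelium and macrophage markers. The absorptive enterocyte markers are the only list shown that lies wholly above the controls.

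Genes on the opposite strand overlap exons of 5 of the 10, and the kit's strand setting is not given, so shared fragments cannot be assigned. Over B4galnt2 lies Gm11534 (0 to 0.366 FPKM), over St6gal1 BC106179 (0.0349 to 0.151), over Fut8 9530018F02Rik (0.114 to 0.591), and over St3gal4 4930581F22Rik (1.13 to 2.04). The closest of these pairs was that of Fut8, at 0.412 FPKM against 1.18 in NEC 3. Dcbld2, a coding gene across St3gal6, was at 0.938 to 1.88 FPKM in NEC and 2.21 to 3.86 in control, below St3gal6 in every library and close to it in control 3 (3.86 against 4.08).

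The surrounding pathway was read from 12 lists of 108 other genes, of which 72 were tested. On the deposited scale 15 were called higher, 19 lower and 38 were not called, where 7.69% of all tested genes were higher and 30.6% lower. With TMM-type scaling the split was 24 higher and 7 lower (16.9% and 14.1% of all tested genes), and with quantile normalization 18 and 9 (13.9% and 15.1%), so the balance of directions depends on the scaling. The lists below give changes on the deposited scale, and their counts are to be read against these shares. Where a list had calls in 1 direction only, 0 of its genes passed an unadjusted p under 0.05 in the other.

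In the GDP-fucose supply list, RNA of the transporters moved upward. Of 6 tested genes 2 were called higher and 1 lower on the deposited scale, 4 and 0 with TMM-type scaling, and 3 and 0 with quantile normalization. Slc35c1, the Golgi GDP-fucose transporter, was at 11.2, 11.6 and 10.3 FPKM in NEC and 5.74, 5.82 and 6.15 in control, a change of 0.80 (SE 0.09, adjusted p = 0.00425). Slc35c2, a related transporter, rose by 1.17 (SE 0.09, adjusted p = 0.00142). Both were called in all 16 alternatives. Fpgt, which makes GDP-fucose in the salvage route, fell by 0.40, a call that both other scalings lost. Of the 3 other fucosyltransferases tested, Pofut1, which puts fucose on Notch and other proteins (−0.88), and Fut11 (−0.65) were called lower, and neither was called with TMM-type scaling or quantile normalization.

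In RNA, the transporter of activated sialic acid moved opposite to those of the GDP-fucose list. Slc35a1, the Golgi CMP-sialic acid transporter, was at 7.27, 10.6 and 9.99 FPKM in NEC and 17.3, 16.0 and 15.5 in control, a change of −0.76 (SE 0.15, adjusted p = 0.0127), called lower under all 3 scalings. Gne, the first enzyme of sialic acid synthesis, fell by 0.54 (adjusted p = 0.0199) but was not called under the other 2 scalings. Cmas, which activates sialic acid to CMP-sialic acid, rose by 0.28. Cmah, which converts the activated sugar to its glycolyl form, was under the filter at 0.0462 to 0.101 FPKM in NEC and 0.137 to 0.225 in control. Of the 6 tested genes of the list, 2 were called lower and 1 higher on the deposited scale. The balance turned to 1 lower and 3 higher with TMM-type scaling, and to 1 lower and 2 higher with quantile normalization.

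Other sialyltransferases gave 4 called lower and 0 higher of 6 tested, with 10 under the filter. St6galnac3 and St6galnac6, which work on O-glycans and glycolipids, each fell by 0.77, and St3gal2 by 1.03. St6galnac3 (0.356 to 0.823 FPKM) and St6galnac6 (0.343 to 0.970) were under 1 FPKM in every NEC library. Both passed the level filter through their control libraries. Under TMM-type scaling 2 of these calls remained, those of St6galnac3 and St6galnac6. St3gal5, which makes the ganglioside GM3, was at 7.57, 8.83 and 11.7 FPKM in NEC and 11.7, 12.7 and 12.97 in control, and its change of −0.39 was not called (adjusted p = 0.0849). Of 4 tested sialidases and fucosidases, 0 were called by limma on the deposited scale, 2 were lower at an unadjusted p under 0.05, and quantile normalization called 1 higher.

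The O-glycan core enzymes were called in both directions, 2 higher and 2 lower of 4 tested. Gcnt3, which branches mucin O-glycans into core 2 and core 4, was at 5.69, 6.25 and 5.30 FPKM in NEC and 18.3, 17.2 and 9.88 in control, a fall by 1.22 (SE 0.22, adjusted p = 0.0113). Control 3 was the lowest control, as it was for most of the 10 listed enzymes. C1galt1c1, the chaperone that C1galt1 needs, fell by 0.44 (adjusted p = 0.0343), a call lost with TMM-type scaling. B3gnt3, which extends core 1, rose by 1.04 (SE 0.25, adjusted p = 0.0215), and Gcnt4 rose by 0.45. The enzymes that start O-glycans gave 2 higher and 4 lower of 10 tested on the deposited scale, 4 and 1 with TMM-type scaling, and 2 and 2 with quantile normalization. Galnt12 (−0.97) was called lower and Galnt6 (0.49) and Galnt10 (0.37) higher under all 3 scalings. Galnt7 (−0.55) was not called with TMM-type scaling, and Galnt18 (−0.61) was called on the deposited scale alone of the 3.

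On the chains between core and tip, B4galt6, a galactosyltransferase that makes lactosylceramide, stood out with 53.4, 25.7 and 17.1 FPKM in NEC and 5.96, 5.64 and 5.45 in control. Its change was 2.15 (SE 0.37, adjusted p = 0.00988) and it was called in all 16 alternatives. B4galt2 fell by 0.91 and B3gnt2, which lengthens lactosamine chains, rose by 0.34, so 2 of 9 tested were higher and 1 lower. B4galt2 was under 1 FPKM in every NEC library (0.232 to 0.896) and passed the level filter through its controls (1.79 to 2.33). Other terminal transferases gave 3 lower of 6 tested, B3galnt1 (−1.26), A4galt (−0.62) and Ggta1 (−0.34), and 0 higher. With TMM-type scaling A4galt alone was called, and with quantile normalization B3galnt1 alone. N-glycan branching gave 1 call of 7 tested, Mgat4a (0.50).

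Proteins that carry or govern these glycans were called upward where they were called. Interleukin-22, a cytokine of lymphoid cells, is known to raise Fut2 in gut epithelium. Il22 was listed at 0 in NEC 3 and all controls and at 0.160 and 0.0992 FPKM in NEC 1 and 2. Its receptor gene Il22ra1 was at 58.8, 52.4 and 46.6 FPKM in NEC and 33.5, 33.2 and 33.7 in control, a change of 0.63 (SE 0.11, adjusted p = 0.0096), and Il18 rose by 1.44. Those were the 2 calls among 7 tested genes of the list, both higher, while Fut2 was lower. Of 4 tested mucin carriers 3 were called higher, the membrane mucins Muc3 (2.00) and Muc13 (0.65) and the brush border protein Cdhr5 (0.35). Muc2, the secreted gel mucin of goblet cells, was at 57.1, 76.7 and 87.5 FPKM in NEC and 88.2, 79.6 and 59.3 in control, and its change of −0.04 was not called.

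**Figure D5:**
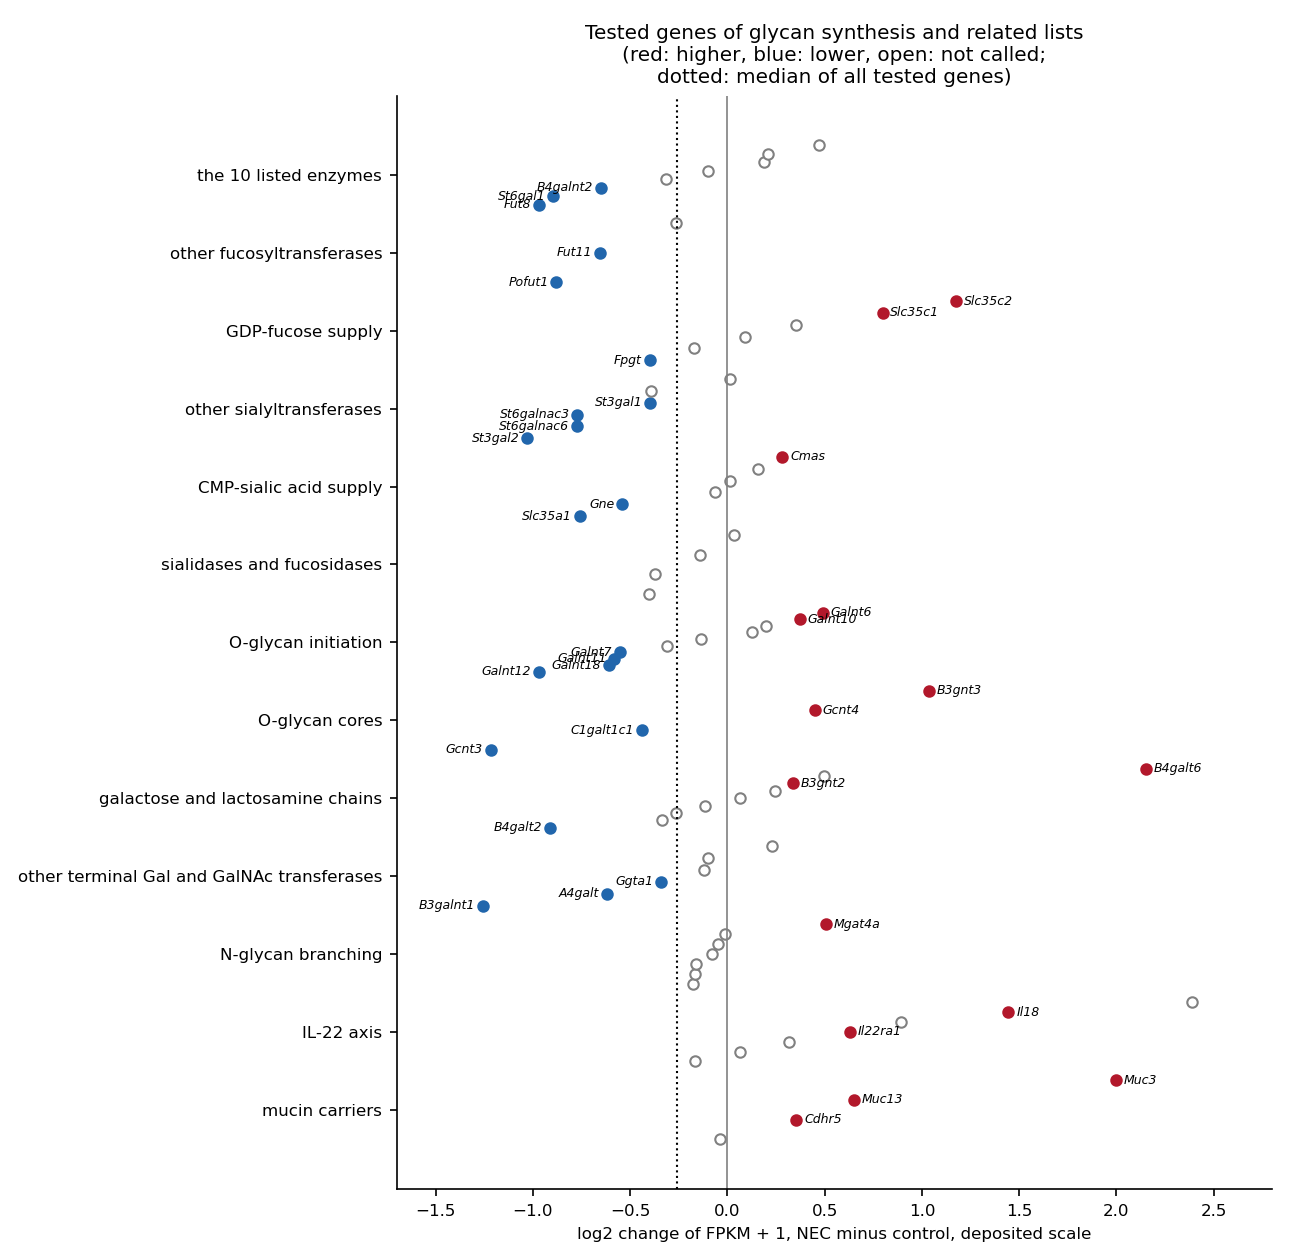
Log2 change of FPKM + 1, NEC minus control, for every tested gene of the 10 listed enzymes and 12 related lists on the deposited scale, with called genes named. B4galt6 (2.15) and Muc3 (2.00) lie farthest to the right among called genes, and Gcnt3 (−1.22) and B3galnt1 (−1.26) farthest to the left.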

How the data were processed

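RNA with an integrity number above 7 went into paired-end TruSeq libraries, per the labels' protocols. The tools were HISAT2, Cuffdiff and SAMtools 1.3.1 with mm10, per the submitters' processing notes. Which annotation and strand setting the authors used is not given in the sources used here. No unit stands in the deposited table. FPKM, computed by the authors, was taken as the unit because Cuffdiff writes it and because 98.6% to 98.7% of low values fell on whole fragments within 0.01. Columns beginning with N were read as NEC. Of 55487 identifiers, 55141 matched GENCODE M21. One fit with limma 3.58.1 in R 4.3.3 (mean-variance trend, pseudocount 1, group as the only term) covered the whole table. An exact permutation test of 3 libraries against 3 cannot go below p = 0.1, so none was used. The test was tested on simulated data, where it missed the recovery first asked for the smaller changes. That criterion was then relaxed and the fit left as it was, so a gene with no call may still have changed.

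The genes and lists were chosen with earlier results of these data known. Named are the 10 genes, up to 3 called genes per list with the smallest p, any called gene against its list's majority, and Fut1, Sec1, Il22, Il22ra1, Muc2, Gcnt3, C1galt1c1, St3gal5, Slc35a1, Slc35c1, Cmah and Gne. Same-numbered libraries did not deviate together (correlations −0.051, −0.0074 and −0.074). Alternatives were other pseudocounts, filters and scalings, no trend, sample weights, a replicate block, and each library left out. The TMM-type factors were first computed over all genes above 0 and then over genes averaging 1 FPKM or more, a choice made after results under both had been seen. Family shares and the St3gal4 to B4galnt2 ratio were also chosen after seeing values. Protein sequences were not used here. Figures were drawn with matplotlib.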

Additional observations from a re-analysis of the deposited data

How the results depend on the processing

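The main limit is the scaling of the libraries. Against 1215 genes higher and 4829 lower on the deposited scale, TMM-type scaling called 2659 and 2214, quantile normalization 2202 and 2387, and the first version of the TMM-type factors, added after seeing the data, 3388 and 1672. Of the 10 genes, those 3 settings called 1, 0 and 3 higher and 2, 3 and 2 lower, and sample weights, whose estimation stopped before convergence, called 1 higher. The median of the tested ones moved from −0.21 to 0.078, 0.065 and 0.15, and that of all tested genes from −0.26 to 0.013, 0.00044 and 0.088. Related lists had 15 higher and 19 lower on the deposited scale, 24 and 7 with TMM-type scaling, 9 lower with quantile normalization, and 25 and 6 with the first version. A mean of at least 5 FPKM, which leaves fewer genes, gave 1746 genes lower, 1 of the 10 lower with a median of 0.19, and 9 list genes lower. Fut4 reversed to 0.17, 0.22 and 0.24 under those 3 scalings, 0.073 without NEC 2 and 0.093 without NEC 3 (range −0.46 to 0.093 with 1 library left out), and St3gal3 to 0.069 under the first version. The cause of these differences was not tested.

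With 1 library left out, genes higher ranged from 471 to 1566 and lower from 917 to 5378. Of the 10 genes, 0 to 2 were higher and 0 to 4 lower, with 0 lower without control 1 or control 2, and 2 higher without NEC 1. List genes ranged from 5 to 16 higher and 0 to 22 lower, again with 0 lower without control 2 and 1 without control 1.

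With the replicate number as a block (replicate block), 3 of the 10 genes were lower and 0 higher, as without it, while list genes fell to 9 higher and 11 lower and all genes to 856 and 3230. Whether the numbers pair the libraries is not known, since correlations over 3 libraries per group cannot settle it. Fut2 and B3galt5 are limited by depth, at fewer than 90 fragments in any library. In NEC 1, Fut8 and St6gal1 also rest on few fragments (40 and 32.3).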

Other observations

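Reg3b and Reg3g, antimicrobial lectins known as targets of interleukin-22, were looked at after their values were seen. Reg3b was at 249, 4.83 and 156 FPKM in NEC and 34.0, 26.5 and 36.1 in control. Reg3g was at 109, 1.6 and 13.7 FPKM in NEC and 2.48, 1.96 and 1.84 in control. NEC 2 was the lowest of the 6 libraries for both genes and also for Fut2. NEC 1 was the highest for both, yet its Fut2 (0.468 FPKM) lay below every control. A link of these genes to Fut2 was not tested. Neither was called (adjusted p = 0.612 and 0.156, limma).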
